A study of Caenorhabditis elegans with 63 samples.

Results

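The mature microRNAs (miRNAs) of Adult Caenorhabditis elegans carrying the allele cdb330 of drsh-1 were compared with those of wild-type Adults in libraries made with bias-minimized adaptors, whose degenerate bases lessen the preference of the ligase for some RNA ends. The comparison rests on 6 of the 63 libraries of the series, 3 of wild type and 3 of drsh-1(cdb330), chosen by genotype, stage and library protocol in the labels. The table holds 276 arms of 138 hairpins, an arm being the mature strand cut from the 5p or the 3p side of a hairpin; 191 arms had enough reads to be tested. All worms were grown at 20 °C and total RNA was taken from whole worms. The wild-type worms differ from the mutants, as far as the labels say, only in drsh-1, which lies on chromosome I, and the labels do not give the sequence change of cdb330. The labels do not say whether replicates came from separate cultures, and p-values therefore reflect only how far these samples spread. Adults of a second allele, drsh-1(cdb328) (n = 3), made with the same adaptors, share the fit and serve as a further comparison, as do wild-type and cdb330 Adults made with the NEBNext small RNA kit (n = 3 each).

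Drosha, the protein that drsh-1 encodes, is a nuclear RNase III. With its partner DGCR8, called PASH-1 in worms, it forms the Microprocessor, which cuts the hairpin precursor of a miRNA out of the long primary transcript; Dicer then releases the duplex of both arms, 1 of which is usually kept in an Argonaute protein while the other, marked here with a star as the files name it, is mostly degraded. Mirtrons, whose precursor is a spliced intron, bypass Drosha.

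The 6 libraries held between 1007643 and 2585561 miRNA reads, and 38.4% to 50.5% of all their reads came from 10 spike-in RNAs. Worm miRNA reads per spike-in size factor in cdb330 were 1.18-fold those in wild type (exact permutation test, two-sided, p = 0.2; 3 against 3 libraries cannot go below 0.1); over summed spike-in reads the ratio was 1.30-fold (exact p = 0.1). Levels are given as CPM, the miRNA's reads scaled to a common library size with TMM factors, which measures a miRNA relative to the others. On the spike-in scale the log2 fold change of an arm was higher by a median of 0.26 than on the TMM scale, and changes are therefore given relative to the other miRNAs unless the spike-in scale is named. Stage and tissue miRNAs of whole Adults were present in both groups. The larval and adult timing miRNAs let-7-5p and lin-4-5p lay at 3064 to 5049.9 and 7634 to 8703 CPM, muscle miR-1-3p at 16946 to 27094 CPM, and the embryonic and germ-line miR-35 family took 12.4% to 15.1% of the reads. The neuronal miRNA miR-124-3p lay at 659 to 843 CPM, whereas lsy-6-3p, made in a single left-sided taste neuron, had 1 to 10 reads per library.

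Of the 191 arms, 1 passed the test in cdb330 (0.524% of arms; edgeR's quasi-likelihood test, Benjamini-Hochberg adjusted p under 0.05), and it was lower: miR-355-5p, a miRNA linked in worms to insulin signalling in the response to pathogenic bacteria. Its hairpin lies between genes on chromosome II (WBcel235, II:11833536-11833645, minus strand). miR-355-5p stood at 1113, 851 and 838 CPM in wild type and at 188, 207 and 240.2 CPM in cdb330, from 910 to 1922.5 and from 249 to 553 reads. Every cdb330 library lay far below every wild-type library. The level fell 4.41-fold (log2 fold change -2.14 ± 0.16, SE, n = 3 per group, adjusted p = 0.000374). In each of the 27 ways in which this comparison was fitted it passed the test, with log2 fold changes of -2.23 to -1.89 over 16 alternatives and a largest adjusted p of 0.00999.

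The other strand of the hairpin, miR-355-3p*, was much rarer and lay lower in cdb330 as well. It stood at 10.4, 9.29 and 8.29 CPM in wild type and at 4, 1.49 and 2.89 CPM in cdb330, and the groups did not overlap. These levels rest on 9 to 17.5 reads in wild type and 3 to 10 in cdb330. The estimate of -1.72 ± 0.36 did not pass in the fit of all arms (adjusted p = 0.0716). The ratio of the 5p to the 3p arm of mir-355 changed by -0.46 ± 0.37 (log2, limma adjusted p = 0.754), and a shift between the strands was not detectable at this depth.

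**Figure D1:**
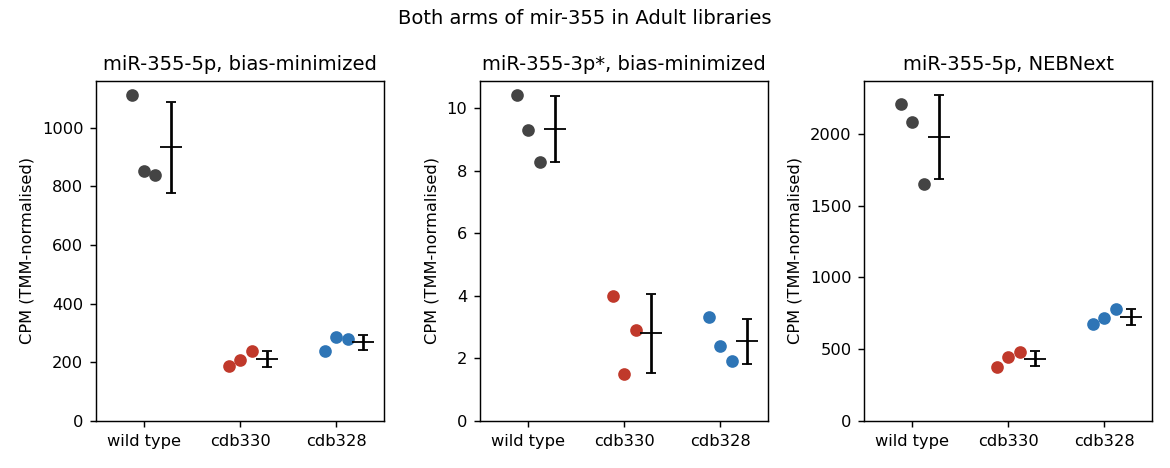
Levels of both arms of mir-355 in Adult libraries (y axis, CPM after TMM scaling; each panel has its own scale), with 1 point per library and the mean ± SD beside the points. miR-355-5p lay at 838 CPM or more in wild type and at 240.2 CPM or less in cdb330 with the bias-minimized adaptors, and the order was the same with NEBNext.

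No arm passed as higher in cdb330 (0.0% of arms), and 37 arms had an unadjusted p under 0.05, against 26 past the threshold by DESeq2's Wald test. The libraries of the groups did not overlap in 52 arms (27.2% of the 191), 30 lower (15.7%) and 22 higher (11.5%) in cdb330. A set of 17 arms varied widely between replicates. Leaving that set out, 169 of 174 arms lay within 2-fold of wild type and 157 within 1.5-fold. The 5 arms beyond 2-fold were those of mir-355, the star strands miR-77-5p* and miR-244-3p*, and miR-790-5p, a scarce arm without a star. All were lower in cdb330, and only miR-355-5p of them passed in the fit of all arms.

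That set of 17 arms differed more than 15-fold between libraries of 1 and the same genotype, and did so in an all-or-none way. In each of them a library was either high or low, with a gap of at least 22.0-fold between the lowest high and the highest low library. They fall into 5 patterns over the 9 Adult libraries. In the first, 6 arms named with a star (miR-34-5p*, miR-35-5p*, miR-36-5p*, miR-41-5p*, miR-64-3p* and miR-65-3p*) were high in replicate 2 of every genotype and low in the other replicates. miR-34-5p*, from the hairpin of the DNA damage miRNA miR-34, read 24.9, 3579 and 13.8 CPM in wild type and 16.4, 2808 and 6.75 CPM in cdb330. In NEBNext Adults of these groups it lay at 450 to 678 CPM, against 14.9 to 28.1 CPM for miR-34-3p. For this hairpin the star therefore did not mark the scarcer strand there. miR-87-3p, miR-233-3p and miR-797-5p* were low in wild-type replicate 2 and in replicates 1 and 2 of both mutants. miR-87-3p read 2899, 34.4 and 3594 CPM in wild type against 37.2, 34.4 and 3818 CPM in cdb330. miR-79-3p, which acts in the skin on the migration of neurons, and miR-75-3p were low in cdb330 replicates 2 and 3 and in cdb328 replicate 3. miR-79-3p, at 23337 to 26272 CPM in wild type, read 26699, 131 and 139.9 CPM in cdb330. miR-236-3p was low in cdb330 replicate 3 alone, at 47.3 CPM against 5986 and 6017 CPM in the other cdb330 libraries.

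The fifth pattern nearly followed the genotype and held the largest fold changes of the comparison. miR-50-5p, miR-244-5p, miR-358-3p, miR-229-3p* and miR-786-5p* were low in all 3 cdb330 libraries, in wild-type replicate 3 and in cdb328 replicates 2 and 3. miR-50-5p read 1664, 1863 and 15.7 CPM in wild type, 8, 18.7 and 12.5 CPM in cdb330, and 1798, 5.95 and 9.64 CPM in cdb328. miR-244-5p read 1310.0, 1461 and 32.2 CPM in wild type against 27.2, 26.9 and 7.72 CPM in cdb330. A wild-type library was thus as low as the mutants. The estimates, from -6.49 for miR-50-5p to -5.31 for miR-786-5p*, did not pass (adjusted p = 0.215 to 0.243). In NEBNext Adults miR-50-5p and miR-244-5p were at 5458 to 6525 and 74.6 to 107 CPM, and the largest difference within an Adult group of any of the 16 wide arms measured there was 4.90-fold. The partner strands of these hairpins, where not themselves wide, differed at most 3.18-fold within a group of the bias-minimized Adults. The wide arms took 0.481% to 5.71% of the miRNA reads, and the cause of their pattern was not tested.

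**Figure D2:**
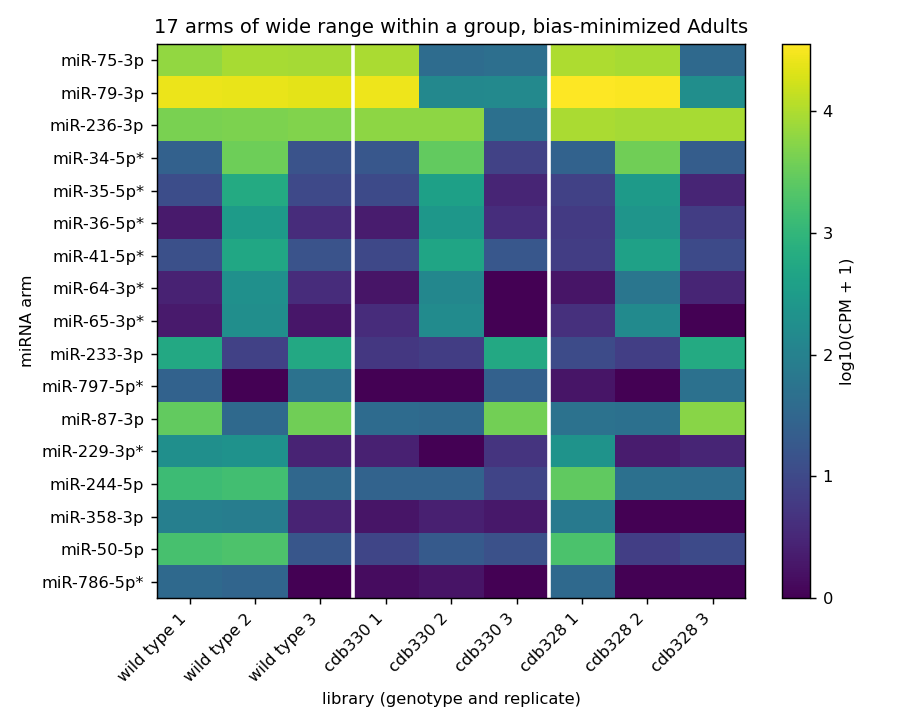
Level of each of the 17 wide arms (rows) in the 9 bias-minimized Adult libraries (columns; white lines part wild type, cdb330 and cdb328), as log10(CPM + 1) by colour. Arms switch between a high and a low state from library to library; the bottom 5 arms are high only in wild-type replicates 1 and 2 and cdb328 replicate 1.

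The test pools the spread between replicates over arms, and that estimate was larger with the wide arms in the fit. The biological coefficient of variation was 0.598 over all 191 arms, 0.296 without 11 of the wide arms and 0.160 without all 17. Those 11, called the 11 widest arms below, are the wide arms whose higher value passed 300 CPM. Their level, not a larger fold range, set them apart from the rest of the 17. Arms were left out for their spread within groups, not for their difference between them. Without the 11 widest arms, 9 of 180 arms passed (5.0%), 4 lower (2.22%) and 5 higher (2.78%) in cdb330; without all 17, a choice made after seeing the data, 8 of 174 passed (4.6%), 3 lower (1.72%) and 5 higher (2.87%). The lower ones were miR-355-5p, miR-355-3p*, miR-72-3p* and, only in the first of these fits, miR-74-3p. The higher ones were miR-60-3p, miR-70-3p, miR-64-5p, miR-62-3p and miR-239b-3p*. Apart from miR-355-5p the calls changed with the libraries included. The estimates of the 8 arms of the fit without all 17 kept their sign in all 6 leave-outs. Their libraries did not overlap between the groups, so a reversed sign was hardly possible, and this is no measure of stability. Without the 17 wide arms, 1 arm passed when cdb330 replicate 2 or 3 was left out or when only the 6 libraries were fitted, 2 without wild-type replicate 1 or 2, 6 without wild-type replicate 3 and 7 without cdb330 replicate 1. miR-60-3p passed in 3 of the 6 leave-outs, with log2 fold changes of 0.45 to 0.66, whereas miR-62-3p passed in 0 with a narrow range of 0.29 to 0.32. Each adjusted p given from here on "without the wide arms" refers to the 174 arms, and the fold changes are those of the fit of all arms unless stated.

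**Figure D3:**
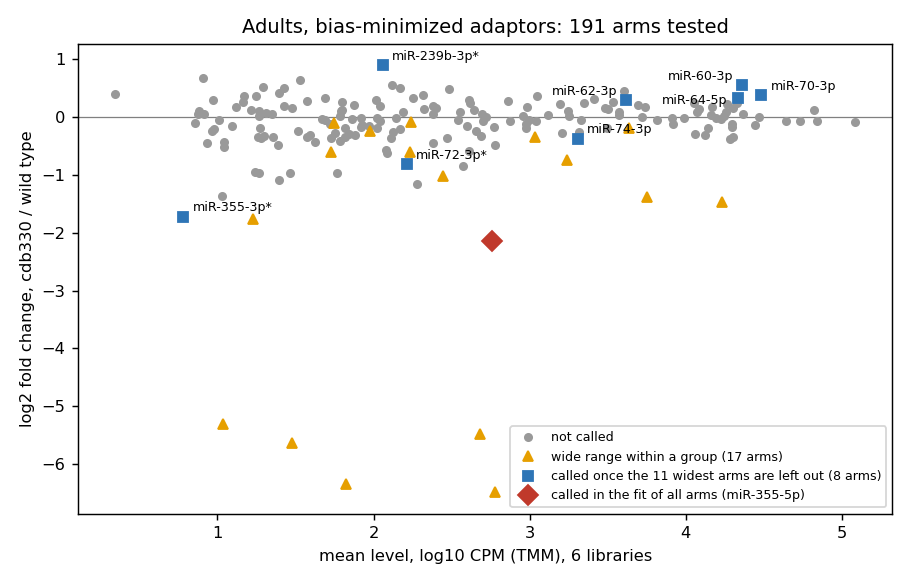
Log2 fold change of cdb330 over wild type (y axis) against mean level over the 6 libraries (x axis, log10 CPM) for the 191 arms of the fit of all arms. miR-355-5p is the 1 arm past the threshold in that fit, the 8 squares passed once the 11 widest arms were left out, and the triangles are the 17 wide arms, among them the 5 arms with values under -5.

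The arms that rose once the wide arms were left out are abundant, apart from miR-239b-3p*, and their differences were small. miR-60-3p, which modulates the response to long-lasting oxidative stress in worms, stood at 15695, 20800.2 and 19104 CPM in wild type and at 25154, 25129 and 31124 CPM in cdb330. All cdb330 libraries lay above all wild-type libraries, and the level was 1.46-fold that of wild type (log2 0.55 ± 0.13; adjusted p = 0.0716 over all arms and 0.0283 without the wide arms). It moved from rank 18 to rank 8 among arms by share of reads. miR-70-3p, whose hairpin sits in an intron of pmp-5 on the same strand, read 25301, 29195 and 24824 CPM in wild type and 32475, 33583 and 37115 CPM in cdb330. It was 1.30-fold higher (0.38 ± 0.09; 0.0716 and 0.031), again without overlap. Its star strand, miR-70-5p*, lay at 121 ± 14.1 (SD) and 172 ± 28.6 CPM, a log2 difference of 0.50 ± 0.15 that did not pass in either fit.

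miR-64-5p, of the cluster of mir-229, mir-64, mir-65 and mir-66 inside gcn-1, read 18335, 19985 and 18969 CPM in wild type and 23175, 23102 and 25341 CPM in cdb330, 1.25-fold higher (0.32 ± 0.08; 0.0716 and 0.031). miR-239b-3p*, the star strand of a hairpin linked to lifespan and stress resistance, read 90.9, 79.0 and 71.8 CPM in wild type and 128, 162 and 159 CPM in cdb330, 1.85-fold higher (0.89 ± 0.20; 0.0716 and 0.031). The libraries of its main strand overlapped, with miR-239b-5p at 1003 ± 65.3 and 970.3 ± 133 CPM (-0.05 ± 0.14).

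miR-62-3p comes from a mirtron in ugt-50 (X:12692608-12692665, plus strand) and so from a precursor that Drosha does not cut. It read 3705, 3898 and 3648 CPM in wild type and 4528, 4615 and 4555 CPM in cdb330. Both groups were tight and did not overlap, at 1.22-fold (0.28 ± 0.06; adjusted p = 0.0697 and 0.031). Its star strand, miR-62-5p*, had means of 21.4 and 16.3 CPM, with overlap (-0.37 ± 0.53). With the replicate number as a block, in the fit without the wide arms, miR-62-3p did not pass (0.32 ± 0.09, adjusted p = 0.0528).

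On the lower side, the miR-72 family stood out among the seed families by its share of reads, at 2.60% ± 0.190 (SD, n = 3) in wild type and 2.07% ± 0.0934 in cdb330, without overlap between libraries. Its most abundant strand, miR-72-5p, read 21778, 24009 and 18749.6 CPM in wild type and 15877, 17436 and 16382 CPM in cdb330, 1.30-fold lower (-0.38 ± 0.09; adjusted p = 0.08 over all arms and 0.0632 without the wide arms). The star strand miR-72-3p* read 206, 243 and 177 CPM against 95.6, 129 and 130.2 CPM, 1.77-fold lower (-0.82 ± 0.18; 0.0716 and 0.031). miR-74-3p read 2203, 2454 and 2216 CPM against 1772, 1800.2 and 1731 CPM, 1.30-fold lower (-0.37 ± 0.07; 0.0697 and 0.0516, and 0.0267 without the 11 widest arms). For the third hairpin the libraries overlapped, with miR-73-3p at 1303 ± 253 and 1332 ± 263 CPM (0.03 ± 0.31). mir-73 and mir-74 lie within 10 kb of each other on chromosome X, and mir-72 lies alone on chromosome II. On the spike-in scale the median of the family was -0.11, against -0.36 on the TMM scale.

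With the replicate number as a block, the fit without the wide arms passed 10 arms (5.75% of 174). It added let-7-5p (0.47 ± 0.11, adjusted p = 0.0355), miR-72-5p (-0.33 ± 0.09, 0.0425) and lin-4-3p* (-0.95 ± 0.25, 0.0425), and lost miR-62-3p. let-7-5p, which ends larval development by silencing lin-41, read 3064, 3367 and 3772 CPM in wild type and 4206, 5049.9 and 4591 CPM in cdb330, so that every cdb330 library lay higher. lin-4-3p* read 76.4, 86.4 and 70.0 CPM against 59.2, 36.6 and 23.2 CPM, whereas the libraries of the main strand lin-4-5p overlapped, at 8153 ± 535 and 8067 ± 268 CPM.

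Further scarce arms, star strands apart from miR-254-3p, lay lower in cdb330 without passing over all arms or without the wide arms. miR-77-5p* read 148, 221 and 416 CPM in wild type and 136, 100.1 and 117 CPM in cdb330 (-1.16 ± 0.36, adjusted p = 0.143), while its main strand miR-77-3p, the fourth most abundant arm, was at 54731 ± 4660.3 and 52359 ± 4931 CPM. miR-58a-5p* read 387, 375 and 675 CPM against 301, 259 and 236 CPM (-0.85 ± 0.25, 0.14). In both, wild-type replicate 3 was the highest library. miR-254-3p lay at 24.5 ± 0.833 and 12.7 ± 3.25 CPM (-0.96 ± 0.24, 0.08), and miR-244-3p* at 33.8 ± 11.3 and 15.7 ± 3.08 CPM (-1.10 ± 0.30, 0.11), without overlap. On the higher side, miR-1820-5p was at 253 ± 32.5 and 354 ± 19.5 CPM (0.48 ± 0.13, 0.0962) and miR-788-3p at 26.5 ± 1.10 and 41.1 ± 8.42 CPM (0.63 ± 0.20, 0.143).

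Families share the seed that pairs with target mRNAs, and no seed family had a member past the test in the fit of all arms, in which the median over all 191 arms was -0.05 with 81 positive and 110 negative estimates. This balance turned with the scale and the arms included, to 137 positive and 54 negative with spike-in factors and to 94 and 80 without the wide arms. Without the wide arms, where 2.87% of all 174 arms passed as higher and 1.72% as lower, 1 of 7 tested arms of the miR-64 family rose, 1 of 6 of the miR-72 family fell, 1 of 6 of the miR-238 family rose and 1 of the 2 mirtron arms rose. These counts of 1 are too small to set a family apart. No arm of the miR-1829, miR-2, miR-58, miR-51, miR-44 and miR-35 families or of the lin-4 and let-7 families passed there, beside a median of 0.02 for all 174 arms. The miR-35 family, needed for embryonic development, had 15 negative estimates of 16 with a median of -0.19 on the TMM scale, but its median was 0.11 on the spike-in scale. Its share of reads was 14.6% ± 0.832 in wild type and 13.1% ± 0.920 in cdb330, with overlap, and miR-35-3p itself was at 20917 ± 6658 and 18622 ± 4223 CPM. The miR-64 family took 8.44% ± 0.412 and 9.39% ± 0.233 of the reads and the let-7 family 2.68% ± 0.0555 and 2.96% ± 0.116. The miR-44 family took 1.02% ± 0.0355 and 1.12% ± 0.0221. Each of these was higher in every cdb330 library. The shares are of all miRNA reads. Wide arms took 4.31% to 4.68% of these in wild type and 4.49%, 1.09% and 0.481% in cdb330 replicates 1, 2 and 3. Shares of all other arms are thereby raised in cdb330 replicates 2 and 3. Separation without the wide arms was not tested. The bantam-like miR-58 family (22.6% ± 0.823 and 23.1% ± 1.14) and the miR-51 family (15.2% ± 0.855 and 15.2% ± 0.600), the families with the most reads, overlapped. Arms named with a star had a median of -0.18 over 77 tested and the remaining arms of 0.01 over 114. Without the wide arms these were -0.07 over 68 and 0.06 over 106. This split follows the name, and a star does not always mark the scarcer strand. In wild type miR-788-5p* took 0.00754% of the reads and miR-788-3p 0.00272%.

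**Figure D4:**
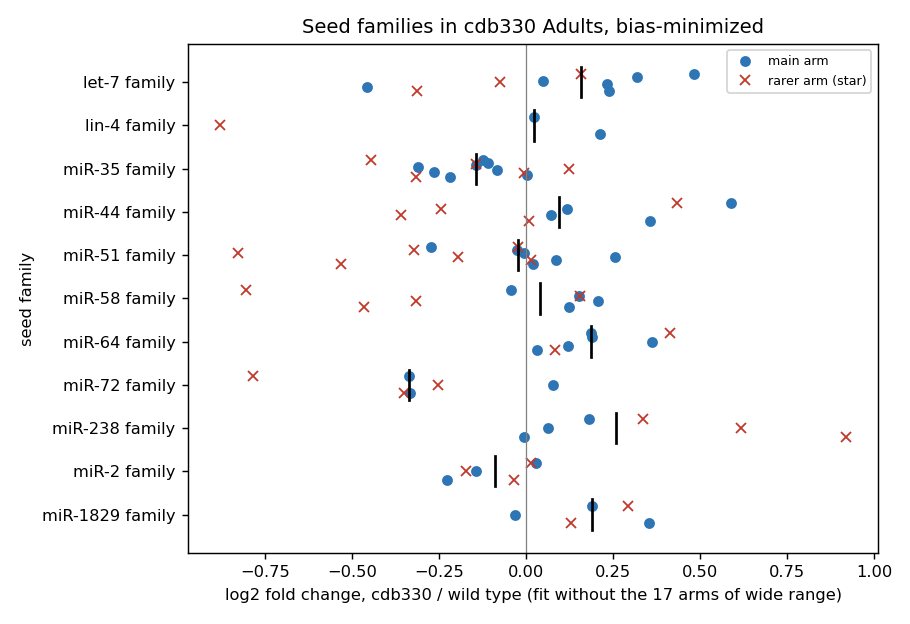
Log2 fold change of cdb330 over wild type in the fit without the 17 wide arms (x axis) for each tested arm of 11 seed families (y axis), with dots for main arms, crosses for star strands and a bar at the median of each family. The miR-72 family has the lowest median, and the miR-64 family has no arm under 0.

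The most abundant miRNAs were largely shared by both groups. The 10 leading arms took 50.3% of the reads in wild type and 51.2% in cdb330, and 8 arms were among the leading 10 in both. The wide arm miR-79-3p went from rank 9 in wild type to rank 32 in cdb330, and miR-55-3p from 10 to 11. miR-58a-3p took 12.8% ± 0.409 and 12.3% ± 0.672, miR-80-3p, of the same family, 6.46% ± 0.369 and 7.13% ± 0.399, and miR-71-5p, known for extending lifespan, 4.60% ± 0.403 and 4.48% ± 0.420. None of the 3 passed. Of the 85 arms that were not tested, 67 had at most 10 reads in any of the 6 libraries and 10 had none; their highest value in any library was 23 reads.

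The balance between the arms of 1 hairpin does not depend on how a library is scaled. It was tested in 93 hairpins with limma on the log2 ratio of 5p to 3p reads, and none passed (0.0%); 7 had an unadjusted p under 0.05, with a smallest adjusted p of 0.466. The hairpin with the smallest p was mir-239b, whose log2 ratio of 5p to 3p reads was 3.51, 3.54 and 3.84 in wild type and 2.94, 2.76 and 2.38 in cdb330 (a change of -0.94 ± 0.28). For lin-4 the ratio was 6.82, 6.54 and 6.75 in wild type and 7.04, 7.82 and 8.37 in cdb330 (1.04 ± 0.33). In both hairpins the groups did not overlap in this ratio, while the libraries of both main strands overlapped in level.

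The alleles cdb330 and cdb328 were set against each other in the same fit. They differed in 69 of 191 arms (36.1%), 36 higher (18.8%) and 33 lower (17.3%) in cdb330, and by 2-fold or more in 27 of the higher and 8 of the lower arms. The named arms given here are examples, not the largest differences in order. miR-71-5p, miR-54-3p and miR-72-5p lay within 2-fold of wild type in cdb330 and were lower in cdb328. miR-71-5p read 38793, 47830.4 and 42291 CPM in cdb330 and 1196, 1917 and 1544 CPM in cdb328 (4.79 ± 0.20, adjusted p = 2.38e-06). miR-54-3p, of the miR-51 family, read 18731, 19883 and 20499.9 CPM against 2219, 2699 and 2473 CPM (3.00 ± 0.10, adjusted p = 7.48e-07). miR-72-5p, at 7084 to 7747 CPM in cdb328, was higher in cdb330 by 1.17 ± 0.10 (adjusted p = 0.000122). In the other direction, miR-124-3p, at 1471 to 1844 CPM in cdb328 and 685 to 786 CPM in cdb330, differed by -1.22 ± 0.13 (adjusted p = 0.000454), and the mirtron arm miR-62-3p, at 6923 to 7411 CPM in cdb328, by -0.66 ± 0.06 (adjusted p = 0.000122). On the spike-in scale 106 arms passed, 104 of them higher in cdb330.

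mir-355 was low in both alleles. miR-355-5p was at 237, 286 and 279 CPM in cdb328, a range that meets that of cdb330, and the difference between the alleles was -0.34 ± 0.16 (adjusted p = 0.137). The same held for miR-355-3p*, at 3.31, 2.38 and 1.93 CPM in cdb328 (0.08 ± 0.40, adjusted p = 0.971). With NEBNext the alleles did not overlap, with miR-355-5p at 675, 720 and 783 CPM in cdb328 Adults and 375, 446 and 481 CPM in cdb330. That NEBNext difference between the alleles was not tested. Against the bias-minimized wild-type libraries, cdb328 had 94 of 191 arms past the threshold (49.2%), 48 lower (25.1%) and 46 higher (24.1%). The 48 arms that fell in cdb328 had a median of -0.25 in cdb330 with 1 of them past the test, and the 46 that rose had a median of 0.16 with none. Over all 191 arms the median in cdb330 was -0.05 and 1 passed (0.524%). The comparisons share their wild-type libraries, so the values are set side by side only.

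NEBNext libraries of the same genotypes and stage also showed the fall of miR-355-5p, which read 2211, 2080 and 1648 CPM in wild type and 375, 446 and 481 CPM in cdb330 there (-2.19 ± 0.13, adjusted p = 2.43e-12). The names of the libraries hint that both protocols started from the same RNA, so they are not counted as independent worms. NEBNext Adults had no read of miR-355-3p* in any library. With NEBNext 16 of 215 arms passed (7.44%), 10 lower (4.65%) and 6 higher (2.79%) in cdb330. In the bias-minimized libraries 15 of these 16 had the same sign, all 10 lower ones and 5 of the 6 higher ones, and 6 had an unadjusted p under 0.05. The exception was miR-236-3p, the wide arm that was low in 1 cdb330 library.

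Several of those arms were close in size. miR-790-5p changed by -1.20 ± 0.23 with NEBNext and by -1.37 ± 0.54 with the bias-minimized adaptors, at 14.5, 13.0 and 19.3 CPM in wild type and 8.4, 4.48 and 4.82 CPM in cdb330. miR-77-5p* changed by -1.49 ± 0.21 with NEBNext and miR-58a-5p* by -0.68 ± 0.14, beside -1.16 and -0.85 with the bias-minimized adaptors. miR-253-3p changed by -1.13 ± 0.21 with NEBNext and by -0.59 ± 0.37 here, where its libraries overlapped at 387, 393 and 694 CPM against 370.5, 423 and 188 CPM. miR-83-5p*, the star strand of a hairpin that acts with mir-34 in the migration of gonadal cells, changed by -0.95 ± 0.17 with NEBNext and by -0.35 ± 0.26 here. On the higher side, miR-80-3p rose by 0.39 ± 0.10 with NEBNext and stood at 0.11 ± 0.09 here. The small rises of miR-60-3p and miR-70-3p in the bias-minimized libraries had NEBNext estimates of 0.17 ± 0.13 and 0.12 ± 0.12, which did not pass; those of miR-64-5p and miR-62-3p were 0.29 ± 0.10 (adjusted p = 0.0677) and 0.43 ± 0.14 (0.0668).

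The difference of the cdb330 effect between protocols was tested for 214 arms and none passed (0.0%, edgeR), while 7 had an unadjusted p under 0.05 and 5 passed by DESeq2. That fit took the libraries of both protocols as independent, although their names hint at shared RNA. With the shared library name as a block, no arm passed either. In the fit without a block, the difference for miR-355-5p was 0.11 ± 0.26 (adjusted p = 0.99). Of the 5, miR-50-5p, miR-244-5p, miR-358-3p and miR-229-3p* are wide arms, and the fifth was miR-81-3p of the miR-58 family, with an edgeR estimate of 0.56 ± 0.15 (adjusted p = 0.182). Across arms tested with both protocols, the log2 fold changes correlated with r = 0.207 (Pearson) and rho = 0.447 (Spearman) over all 180, and with 0.680 and 0.545 over the 164 that are not wide. Without mir-355, over 163 arms, r was 0.611 and rho 0.536. Arms are not independent replicates, and they share the libraries of each protocol.

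**Figure D5:**
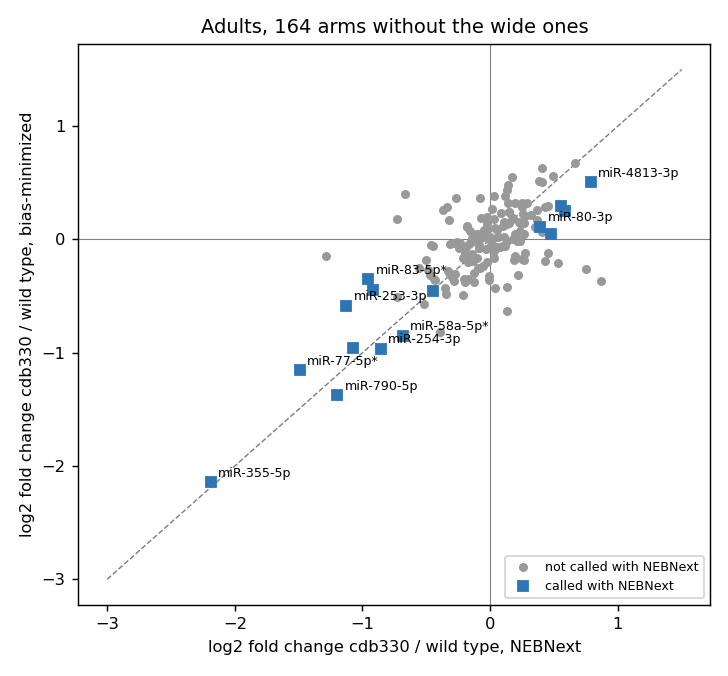
Log2 fold change of cdb330 over wild type with the bias-minimized adaptors (y axis) against that with NEBNext (x axis) for the 164 arms tested with both that are not wide; squares passed with NEBNext and the dashed line marks equal values. miR-355-5p lies on the line at the far lower left, and every square has the same sign on both axes.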

How the data were processed

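The authors deposited 1 table of bias-minimized libraries and 1 of NEBNext libraries; both were taken as estimated counts (expected counts) of reads per miRNA arm, and only the NEBNext table is said to be raw reads, per the file headers. In the 6 libraries 38 values (2.21%) were not whole, all midway between whole numbers, and values were rounded before tests. The submitters' processing notes name HTSeq. Not given in the sources used here are its version, the aligner, the genome build, any read filter and the division of reads between near-identical family members. Positions are from the Ensembl annotation of WBcel235, where 137 of 138 hairpins matched by name (let-7 did not). No sequences are printed.

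The members and lists were chosen with earlier results of these data known. edgeR 4.0.16 (R 4.3.3) was run on the 9 bias-minimized Adults with filterByExpr (at least 10 reads, 15 in total), TMM factors from the miRNA rows, glmQLFit and glmQLFTest. p-values were adjusted by Benjamini-Hochberg over all arms tested (threshold 0.05). SEs are those implied by the F statistic. Arm balance used limma 3.58.1 on log2 ratios with 1 read added to each arm (mean of at least 3 reads in the rarer arm). The NEBNext values come from a like fit of the 18 libraries of these genotypes, L4 and Adult. Scripts were tested on simulated data.

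Named arms have a mean of at least 10 CPM and passed the test without overlap (up to 12 each way, filled up by smallest p to 8), or belong to a fixed set, the arms that passed with NEBNext, or the 1 to 4 smallest p of a list. The wide arms, miR-81-3p and the partner strands miR-62-5p*, miR-73-3p, miR-77-3p and miR-239b-5p were named after their values were seen. Lists of the remaining kinds (heterochronic, lifespan and stress, genomic clusters, chromosomes) held no arm past the test in the fit of all arms other than miR-355-5p on chromosome II.

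Replicates of a group did not agree within sampling noise (chi-square per degree of freedom at least 90.9), so each library counts as 1 sample. Deviations from the group means correlated between same-numbered wild-type and cdb330 libraries (r = 0.102, 0.807 and 0.415 over all tested arms), each over the 0.1 set for giving blocked values. Some pairs of unlike number correlated more (0.570 for wild type 1 with cdb330 3, 0.133 for wild type 3 with cdb330 1). Over all tested arms the same-numbered values were 0.494, 0.640 and 0.723 for cdb328 with cdb330. For wild type with cdb328 they were 0.539, 0.612 and 0.616. Without the 17 wide arms they were -0.164, 0.219 and -0.247 for wild type with cdb330. The other 2 sets were then 0.213, 0.0939 and -0.00503, and 0.152, 0.0712 and 0.0338. Outside the wide arms the numbers are thus weak evidence of pairing. Alternatives were DESeq2 1.42.0 size factors or Wald test, total counts, spike-in size factors, no filter, a robust fit, only the 6 libraries, the replicate block, leaving out wide arms, and leaving out each library.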

Additional observations from a re-analysis of the deposited data

How the results depend on the processing

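miR-355-5p passed in the cdb330 comparison under every alternative run; the number of arms past the threshold did not hold. Against 1 arm in the fit of all arms it was 7 with DESeq2's size factors in edgeR, 10 with total counts, 2 with spike-in size factors, 26 with DESeq2's Wald test, 9 without the 11 widest arms and 8 without the 17. Combined with leaving out the 17 it was 10 with the replicate block, 7 with spike-in factors, 17 with DESeq2 and 1 with only the 6 libraries. Leaving out each library in turn gave 1 to 4 arms (4 without wild-type replicate 1), and 1 to 7 without the 17 wide arms. Against cdb328 the count was 69, with 106 on the spike-in scale and 52 to 64 without a library. For the protocol difference it was 0 against 5 with DESeq2, and 0 to 5 without a library: 5 without wild-type replicate 3 and 3 without cdb330 replicate 1. For NEBNext it was 16, with 10 to 18 without a library, the 10 without cdb330 replicate 2. Arm balance gave 0 under every alternative run. The counts against cdb328 and for the protocol difference come from fits that include the wide arms. With a block in the fit of all arms, 1 arm passed against wild type, 69 against cdb328 and 0 for the protocol difference. Arm balance then gave 0 and NEBNext 17. The block was the replicate number, but for the protocol difference it was the library name that both protocols share. Worm reads per spike-in were 1.09-fold to 1.24-fold without a library. The cause of these changes was not tested.

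Of 44 named arms, 33 kept their sign in all of up to 16 alternatives and 11 did not. miR-355-5p, the only arm past the test in the fit of all arms, is among the 33. Many arms were named for a small p in these same libraries, so a kept sign is no measure of stability. lin-4-5p (-0.02) was 0.0247 with DESeq2's size factors, 0.0245 with its Wald test, 0.0114 with total counts, 0.25 with spike-ins, 0.0112 without the 11 widest arms and 0.0225 without the 17. On the spike-in scale miR-35-3p was 0.11, miR-58a-3p 0.18, miR-71-5p 0.22, miR-236-3p 0.13, miR-250-5p* 0.0434 and miR-124-3p 0.18. Without 1 library, lsy-6-3p ranged from -0.13 to 1.16, lin-4-5p from -0.042 to 0.072, miR-35-3p from -0.34 to 0.11, miR-71-5p from -0.12 to 0.0113, miR-245-3p from -0.17 to 0.21, miR-236-3p from -0.60 to 0.41, miR-47-5p* from -0.0468 to 0.56, miR-259-5p from -0.0918 to 0.21 and miR-124-3p from -0.16 to 0.0349. Depth limits arms of few reads such as miR-355-3p* and lsy-6-3p.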
